A study of Mus musculus with 12 samples.

Results

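The elastic fibre proteins described here are 10 genes, taken as every row of the count table whose gene symbol is Eln, Fbn1, Fbn2, Fbln1, Fbln2, Fbln5, Efemp1, Efemp2, Mfap2 or Mfap4. They are 10 of 36512 genes in the table, and 10 of 10 had enough counts to be tested, as did 21285 genes in all. Their RNA was measured in wild-type CD-1 mouse pups of mixed sex at postnatal day 3, whose aorta and surrounding perivascular fat were dissected as 1 piece, digested and sorted by flow cytometry. The 4 sorted populations were progenitor cells, intermediate cells, preadipocytes and smooth muscle cells, with 3 libraries each, and no group carried a treatment or an engineered allele. The labels do not give the sort gates or the number of pups behind a library. They also leave unsaid whether replicates are separate animals or separate sorts. The p-values therefore reflect only how much these 12 libraries vary, and part of that variation may be technical.

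Elastic fibres let the aorta stretch with each heartbeat and recoil. Their core is elastin, made from the soluble precursor tropoelastin, which lysyl oxidases cross-link on a scaffold of fibrillin microfibrils. Fibulins and microfibril-associated proteins bind these parts and take part in their assembly, and in the arterial wall most elastin is laid down around birth by smooth muscle cells.

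Libraries held 11701825 to 17123109 counts. Levels are CPM, which are counts divided by library size on a fixed scale, after scaling by the trimmed mean of M-values (TMM), which sets libraries on a common scale from genes that differ little. Summed CPM of 8 smooth muscle markers, among them Myh11 and Acta2, was 7271 to 7880 in the smooth muscle libraries, 933 to 1271 in intermediate, 160 to 173 in progenitor and 126 to 232 in preadipocyte libraries. The 8 fibroblast and progenitor markers, among them Pdgfra and Col1a1, summed to 86286 to 89895 CPM in progenitor and 136312 to 144583 CPM in intermediate libraries, against 16271 to 18073 in smooth muscle and 5977 to 10504 in preadipocyte libraries. Col1a1 and Col1a2 carried the higher sum in intermediate libraries, and the other 6 were lower there than in progenitor, among them Pdgfra (303 against 524 CPM), Cd34 (256 against 1171 CPM) and Ly6a (1.99 against 748 CPM). The 8 adipocyte lineage markers were highest in preadipocytes, at 5141 to 8446 CPM. Blood genes reached 931 to 14727 CPM in preadipocyte libraries, with replicate 3 highest, and at most 291.8 CPM elsewhere. In these sorted bulk samples, fewer cells of a type and less RNA per cell cannot be told apart.

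Promoters were taken from the RefSeq table for 7 members. That source had no entry used here for Eln and Mfap4, and Fbn2 was not looked up. More than 1 window was listed for Efemp2 (3), Mfap2 (2) and Fbln5 (2), and only the window nearest the annotated gene start was searched. Of these, 4 are shown for how their levels separate the populations. Efemp1 was high in progenitor and smooth muscle cells and low in intermediate cells and preadipocytes. Efemp2 and Mfap2 were high in progenitor and intermediate cells, and Fbln5 was low in preadipocytes. Each sequence is the 250 bases before the annotated start on GRCm38.p6, read on the strand of the gene, and capitals mark motif matches on either strand. Efemp1 lies at chr11:28852955-28853204 (plus strand), Efemp2 at chr19:5473696-5473945 (plus), Mfap2 at chr4:141010174-141010423 (plus) and Fbln5 at chr12:101819120-101819369 (minus).
Efemp1: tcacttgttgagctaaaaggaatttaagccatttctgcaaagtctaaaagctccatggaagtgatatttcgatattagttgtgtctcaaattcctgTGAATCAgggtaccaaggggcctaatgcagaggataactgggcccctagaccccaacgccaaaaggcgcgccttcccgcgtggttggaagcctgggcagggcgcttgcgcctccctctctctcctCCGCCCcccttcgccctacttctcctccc
Efemp2: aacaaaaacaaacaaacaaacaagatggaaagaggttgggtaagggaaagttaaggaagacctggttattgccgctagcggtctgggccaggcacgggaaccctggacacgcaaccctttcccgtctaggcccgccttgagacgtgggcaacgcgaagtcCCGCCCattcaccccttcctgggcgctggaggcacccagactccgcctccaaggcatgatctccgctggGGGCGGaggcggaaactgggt
Mfap2: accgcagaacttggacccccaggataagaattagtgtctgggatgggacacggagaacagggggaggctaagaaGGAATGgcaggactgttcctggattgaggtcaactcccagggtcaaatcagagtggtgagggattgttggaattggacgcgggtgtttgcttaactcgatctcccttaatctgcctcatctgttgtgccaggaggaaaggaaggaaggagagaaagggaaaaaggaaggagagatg
Fbln5: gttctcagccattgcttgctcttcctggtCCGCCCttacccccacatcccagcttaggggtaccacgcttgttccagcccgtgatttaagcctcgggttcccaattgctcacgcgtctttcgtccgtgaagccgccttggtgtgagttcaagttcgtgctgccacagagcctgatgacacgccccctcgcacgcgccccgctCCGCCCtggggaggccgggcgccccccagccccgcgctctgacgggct
A window was searched for 5 known promoter motifs on both strands. The sequence GGGCGG, bound by Sp1, matched in Efemp1 at 29 bases before the start, in Efemp2 at 90 and 21 bases, and in Fbln5 at 221 and 48 bases, and 32.74% of 32851 windows of this length held it. The M-CAT element, spelled CATTCC, matched in Mfap2 at 176 bases and was held by 12.64% of windows. The AP-1 element, spelled TGANTCA, matched in Efemp1 at 154 bases and was held by 6.75%. None of these windows held the TATA box, spelled TATAAA and held by 12.37% of windows, or the CArG box, searched under its name and held by 1.47%. The GC content was 65.2% for Fbln5, 59.2% for Efemp2, 53.6% for Efemp1 and 51.2% for Mfap2, and the median of all windows was 52.4%.

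An F test for any difference between populations, from edgeR's quasi-likelihood fit, called all 10 members (Benjamini-Hochberg adjusted p from 9.86e-12 for Mfap4 to 9.75e-05 for Fbn2), and it called 79.8% of all genes tested. A share of this size in the background means that the count alone does not set the members apart. Together they took 6.84% to 8.77% of all counts in smooth muscle, 2.63% to 2.84% in intermediate, 1.63% to 1.69% in progenitor and 0.307% to 0.521% in preadipocyte libraries. With Eln left out, the order changed, and progenitor and intermediate libraries overlapped at the top. The other 9 members summed to 13720 to 15070.0 CPM in progenitor and 13886 to 14454 CPM in intermediate libraries, to 5958 to 6146 CPM in smooth muscle and to 1510 to 2443 CPM in preadipocyte libraries.

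**Figure D1:**
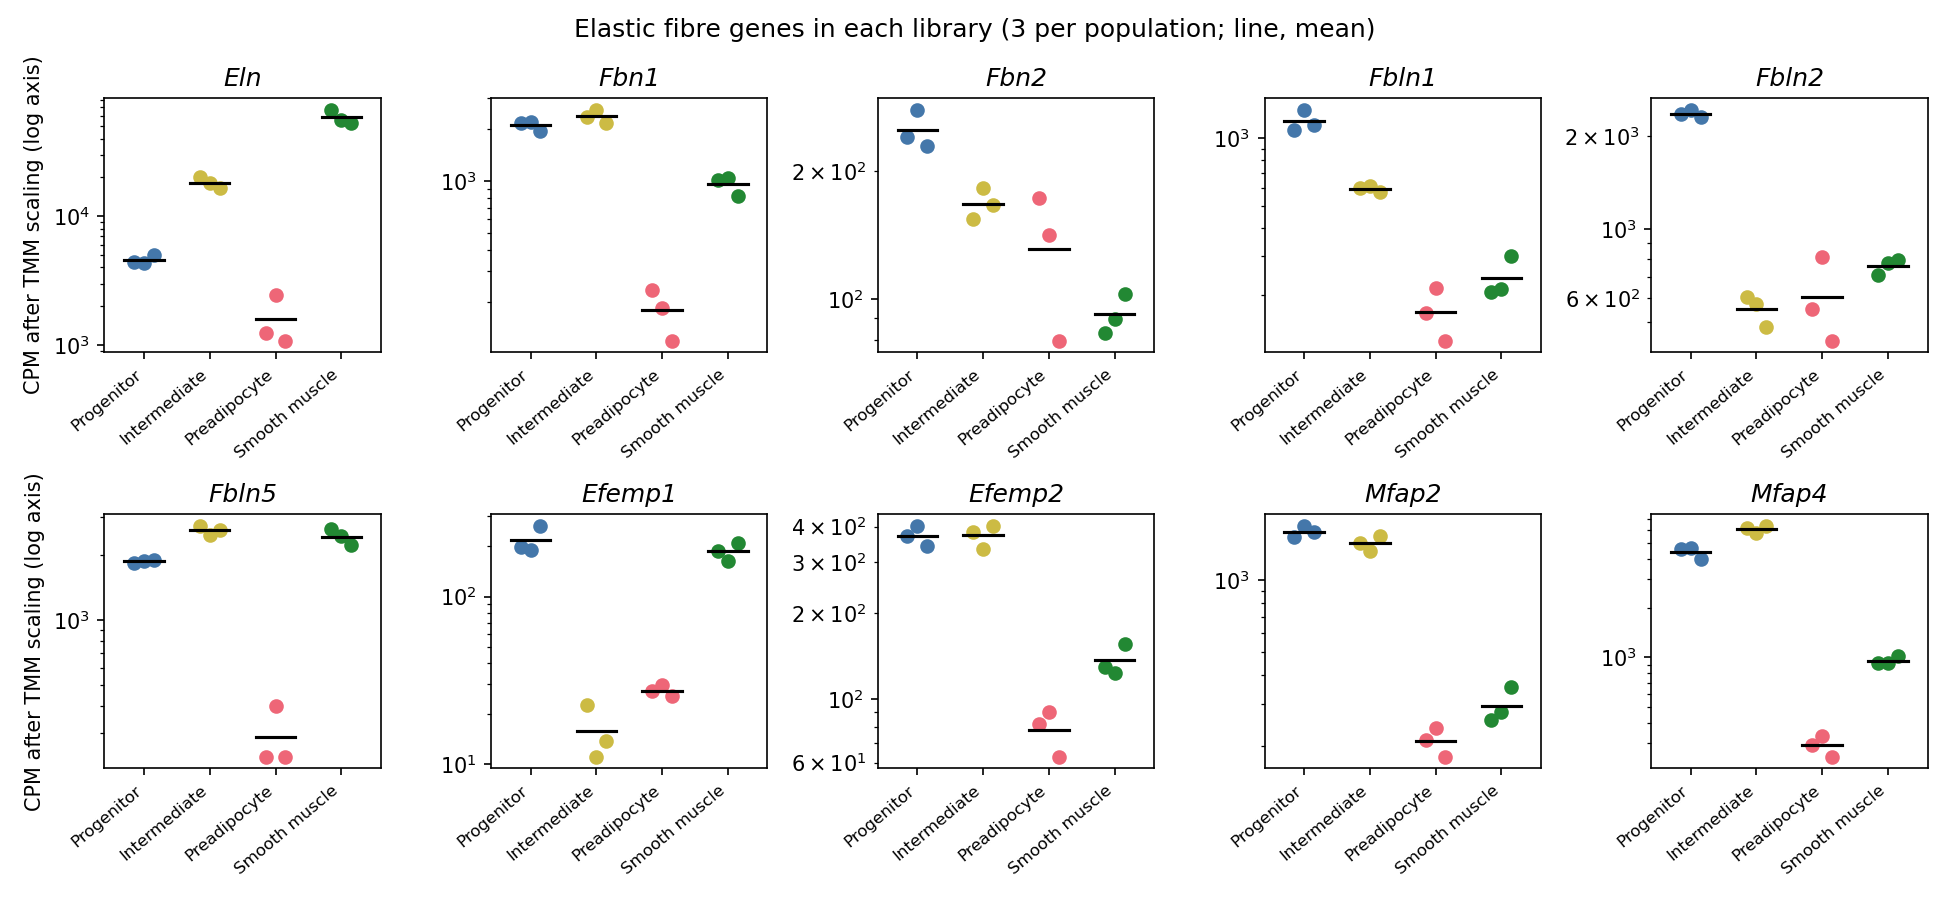
Level of each of the 10 members in each of the 12 libraries (CPM after TMM scaling, log axis, a separate range per panel); points are libraries and horizontal lines are the mean of 3. Eln is highest in smooth muscle and lowest in preadipocytes, while Efemp1 is lowest in intermediate libraries.

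Eln, the gene of tropoelastin (mm10 chr5:134702593-134747323, minus strand), rose from preadipocytes through progenitor and intermediate cells to smooth muscle with no overlap between neighbouring groups. Its level was 1239, 2450.2 and 1080.3 CPM in preadipocyte replicates 1 to 3, 4411, 4340.3 and 4974 CPM in progenitor, 20121, 18231 and 16457 CPM in intermediate, and 67444, 55905 and 53007 CPM in smooth muscle libraries. Eln alone took 6.94% ± 0.978 (SD, n = 3) of all smooth muscle counts, against 1.54% ± 0.124 in intermediate, 0.399% ± 0.0306 in progenitor and 0.178% ± 0.072 in preadipocyte libraries. Smooth muscle exceeded progenitor 12.8-fold (log2 3.68 ± 0.26 SE, adjusted p = 2.05e-08, edgeR), intermediate 3.22-fold (1.69 ± 0.24, 6.35e-05) and preadipocyte 37-fold (5.21 ± 0.28, 8.22e-10). Intermediate exceeded progenitor 3.99-fold (SE 0.25 on the log2 scale, adjusted p = 2.79e-05, edgeR). The summed smooth muscle markers given above also rose from progenitor through intermediate to smooth muscle libraries, and their part in the Eln result was not tested.

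Fbn1 (chr2:125300594-125507993, minus strand) encodes fibrillin-1, the main microfibril protein after birth, and was high in progenitor and intermediate cells. Its levels were 2162, 2191 and 1956 CPM in progenitor and 2335, 2588 and 2164 CPM in intermediate libraries, whose ranges overlapped (log2 difference 0.17, 95% interval -0.24 to 0.57). Smooth muscle held 1016, 1039 and 823 CPM, less than progenitor (log2 -1.13 ± 0.19, adjusted p = 0.000185, edgeR), and preadipocytes held 235, 184 and 119 CPM, the lowest of all. Fbn2 (chr18:58008623-58210487, minus strand) encodes fibrillin-2, the fibrillin best known from developing tissue. Its level was 240.0, 279 and 229.6 CPM in progenitor, 154, 183 and 166 CPM in intermediate, 172, 141 and 79.8 CPM in preadipocyte, and 83.3, 89.8 and 103 CPM in smooth muscle libraries. Progenitor stood above every other library, and preadipocyte replicate 3 lay below all 3 smooth muscle libraries. The call of Fbn2 as lower in smooth muscle than in preadipocytes (log2 -0.51 ± 0.21, adjusted p = 0.039, edgeR) was lost in 7 of 20 other settings, among them library size alone (0.0589), the 5 CPM filter (0.0604) and leaving out either of preadipocyte replicates 1 and 2 or smooth muscle replicates 1 and 2 (0.0748 to 0.176).

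Mfap2 (chr4:141010418-141015984, plus strand) and Mfap4 (chr11:61485431-61488900, plus strand) encode microfibril-associated proteins. MFAP2, also called MAGP-1, is a microfibril component, and MFAP4 binds elastin and fibrillin. Mfap4 stood at 4599, 4671 and 3989 CPM in progenitor, 6199.7, 5772 and 6352 CPM in intermediate, 928, 919 and 1013 CPM in smooth muscle, and 292, 331 and 247 CPM in preadipocyte libraries. The 4 groups did not overlap. Mfap4 in intermediate cells exceeded preadipocytes 21-fold (log2 4.40 ± 0.15, adjusted p = 2.34e-11, edgeR), the largest difference of any member in that comparison. Against progenitor its rise in intermediate cells was smaller (log2 0.47 ± 0.13, adjusted p = 0.0176, edgeR). This call was lost with no low-count filter (0.362) and with preadipocyte replicate 3 as the TMM reference (0.069). It was also lost without any 1 of the 6 libraries compared (0.0673 to 0.234). Of these, leaving out progenitor replicate 2 or an intermediate library also changed the TMM reference. Mfap2 was at 1518, 1696 and 1596 CPM in progenitor and 1433, 1334 and 1529.7 CPM in intermediate libraries, which overlapped (log2 -0.16, 95% interval -0.47 to 0.14). In smooth muscle it was at 257, 277 and 354 CPM, 2.44 ± 0.15 lower than in progenitor on the log2 scale (adjusted p = 4.38e-09, edgeR), and in preadipocytes at 213, 239 and 180.1 CPM. Smooth muscle exceeded preadipocytes by 0.49 ± 0.14 (adjusted p = 0.0073, edgeR). This call was lost with no low-count filter, in a fit to both groups alone and under the other TMM reference. It was also lost without progenitor replicate 2, smooth muscle replicate 3 or any intermediate library (0.0653 to 0.799 over all these settings). Without progenitor replicate 2 or an intermediate library the TMM reference changed too, so these settings share a scaling change with the other TMM reference.

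The fibulins bind elastin and basement membrane proteins. Fbln5 (chr12:101746565-101819055, minus strand), whose product tethers tropoelastin to microfibrils and is required for normal elastic fibres in mice, was high in all populations but preadipocytes. Its levels were 2627, 2433 and 2209 CPM in smooth muscle, 2723, 2476 and 2611 CPM in intermediate, 1839.7, 1865 and 1890.3 CPM in progenitor, and 233, 398 and 233 CPM in preadipocyte libraries. Smooth muscle exceeded preadipocytes 8.41-fold (log2 3.07 ± 0.19, adjusted p = 2.85e-09, edgeR). The smooth muscle and intermediate ranges overlapped (log2 -0.10, 95% interval -0.48 to 0.27), and with library size alone the sign turned and smooth muscle was called higher (0.39, adjusted p = 0.0452, edgeR). Every smooth muscle and intermediate library lay above every progenitor library, with differences of 0.38 ± 0.18 (adjusted p = 0.082, edgeR) and 0.48 ± 0.18 (adjusted p = 0.0537, edgeR) that missed the threshold. With library size alone both passed (0.82 and 0.44), and with no low-count filter the first turned to -0.11. Both also passed with the 5 CPM filter (0.58 and 0.61), in fits to both groups alone (0.39 and 0.56) and without preadipocyte replicate 2 or 3 (0.34 and 0.47). The second passed with DESeq2 (0.0289), with DESeq2-type size factors (0.0475) and without preadipocyte replicate 1 (0.0447).

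Fbln1 (chr15:85205949-85286535, plus strand) and Fbln2 (chr6:91212455-91272540, plus strand), for fibulin-1 and fibulin-2, were both highest in progenitor cells. Fbln1 stood at 1092, 1345 and 1151 CPM in progenitor, 598, 615 and 577 CPM in intermediate, 206, 212 and 299 CPM in smooth muscle, and 166, 214 and 125 CPM in preadipocyte libraries. Smooth muscle and preadipocyte libraries overlapped. The call of Fbln1 as higher in smooth muscle (log2 0.51 ± 0.18, adjusted p = 0.0242, edgeR) was lost in 11 of 20 other settings. Among them were those without preadipocyte replicate 1 or 3, smooth muscle replicate 3, progenitor replicate 2 or any intermediate library (0.0738 to 0.37). Without progenitor replicate 2 or an intermediate library the TMM reference changed too. These settings therefore share a scaling change with that of the other TMM reference. Fbln2 was at 2347, 2433 and 2303 CPM in progenitor, with 606, 572 and 481 CPM in intermediate, 552, 815 and 436 CPM in preadipocyte, and 712, 779 and 793 CPM in smooth muscle libraries. The last 3 groups stood well below progenitor, by 1.63 to 2.09 on the log2 scale. None of the 3 differences among them passed the threshold in edgeR (adjusted p = 0.0678 to 0.58). With library size alone all 3 passed, at 0.95 for smooth muscle over intermediate, 0.41 for smooth muscle over preadipocyte and -0.54 for intermediate against preadipocyte libraries (adjusted p = 0.00019, 0.0277 and 0.00725, edgeR). Without preadipocyte replicate 2 the last turned to 0.15 and was not called, and smooth muscle exceeded both intermediate (0.44, adjusted p = 0.012, edgeR) and preadipocyte libraries (0.59, adjusted p = 0.00193, edgeR). Smooth muscle against intermediate also passed with DESeq2 (0.0388), with the 5 CPM filter (0.0109), in a fit to both groups alone (0.00465) and without preadipocyte replicate 3 (0.0138). Smooth muscle against preadipocyte also passed with the 5 CPM filter (0.0214), and with no low-count filter its sign turned (-0.09).

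Efemp1 (chr11:28853204-28926743, plus strand) encodes fibulin-3, and Efemp2 (chr19:5473954-5482517, plus strand) fibulin-4, which in mice is required for elastic fibre formation and brings lysyl oxidase to tropoelastin. Efemp1 stood at 198, 190.1 and 264 CPM in progenitor and 188, 164 and 209 CPM in smooth muscle libraries, and at 22.5, 11.1 and 13.7 CPM in intermediate and 27.4, 29.7 and 25.6 CPM in preadipocyte libraries. Intermediate cells were 3.79 ± 0.23 lower than progenitor (adjusted p = 2.38e-08, edgeR) and smooth muscle 3.57 ± 0.23 higher than intermediate (adjusted p = 1.34e-08, edgeR) on the log2 scale. Progenitor and smooth muscle overlapped (log2 -0.22 ± 0.20, adjusted p = 0.374, edgeR); the difference turned to 0.22 with library size alone and passed the threshold at -0.51 with preadipocyte replicate 3 as the TMM reference (0.0426), so its direction depended on the scaling. It also passed without progenitor replicate 2 or any intermediate library (-0.66 to -0.58), in settings in which the TMM reference changed, and with no low-count filter (-0.70, adjusted p = 0.00607, edgeR). The 5 mesothelial markers Msln, Upk3b, Krt19, Wt1 and Lrrn4 summed to 984 to 1353 CPM in smooth muscle, 81.9 to 176 in progenitor, 19 to 71.7 in intermediate and 14.1 to 54.4 in preadipocyte libraries, with none at 0 in all libraries of a group. The 6 Schwann and neuronal markers summed to 524 to 702 CPM in smooth muscle and at most 89.3 CPM elsewhere. The part of either list in the Efemp1 level was not tested. Efemp2 followed another pattern, with 370.4, 401 and 342 CPM in progenitor, 384, 335 and 403 CPM in intermediate, 129.7, 124 and 156 CPM in smooth muscle, and 81.5, 90.1 and 62.8 CPM in preadipocyte libraries. Progenitor and intermediate overlapped (log2 0.01, 95% interval -0.30 to 0.32), and the other groups did not overlap with them or with each other.

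**Figure D2:**
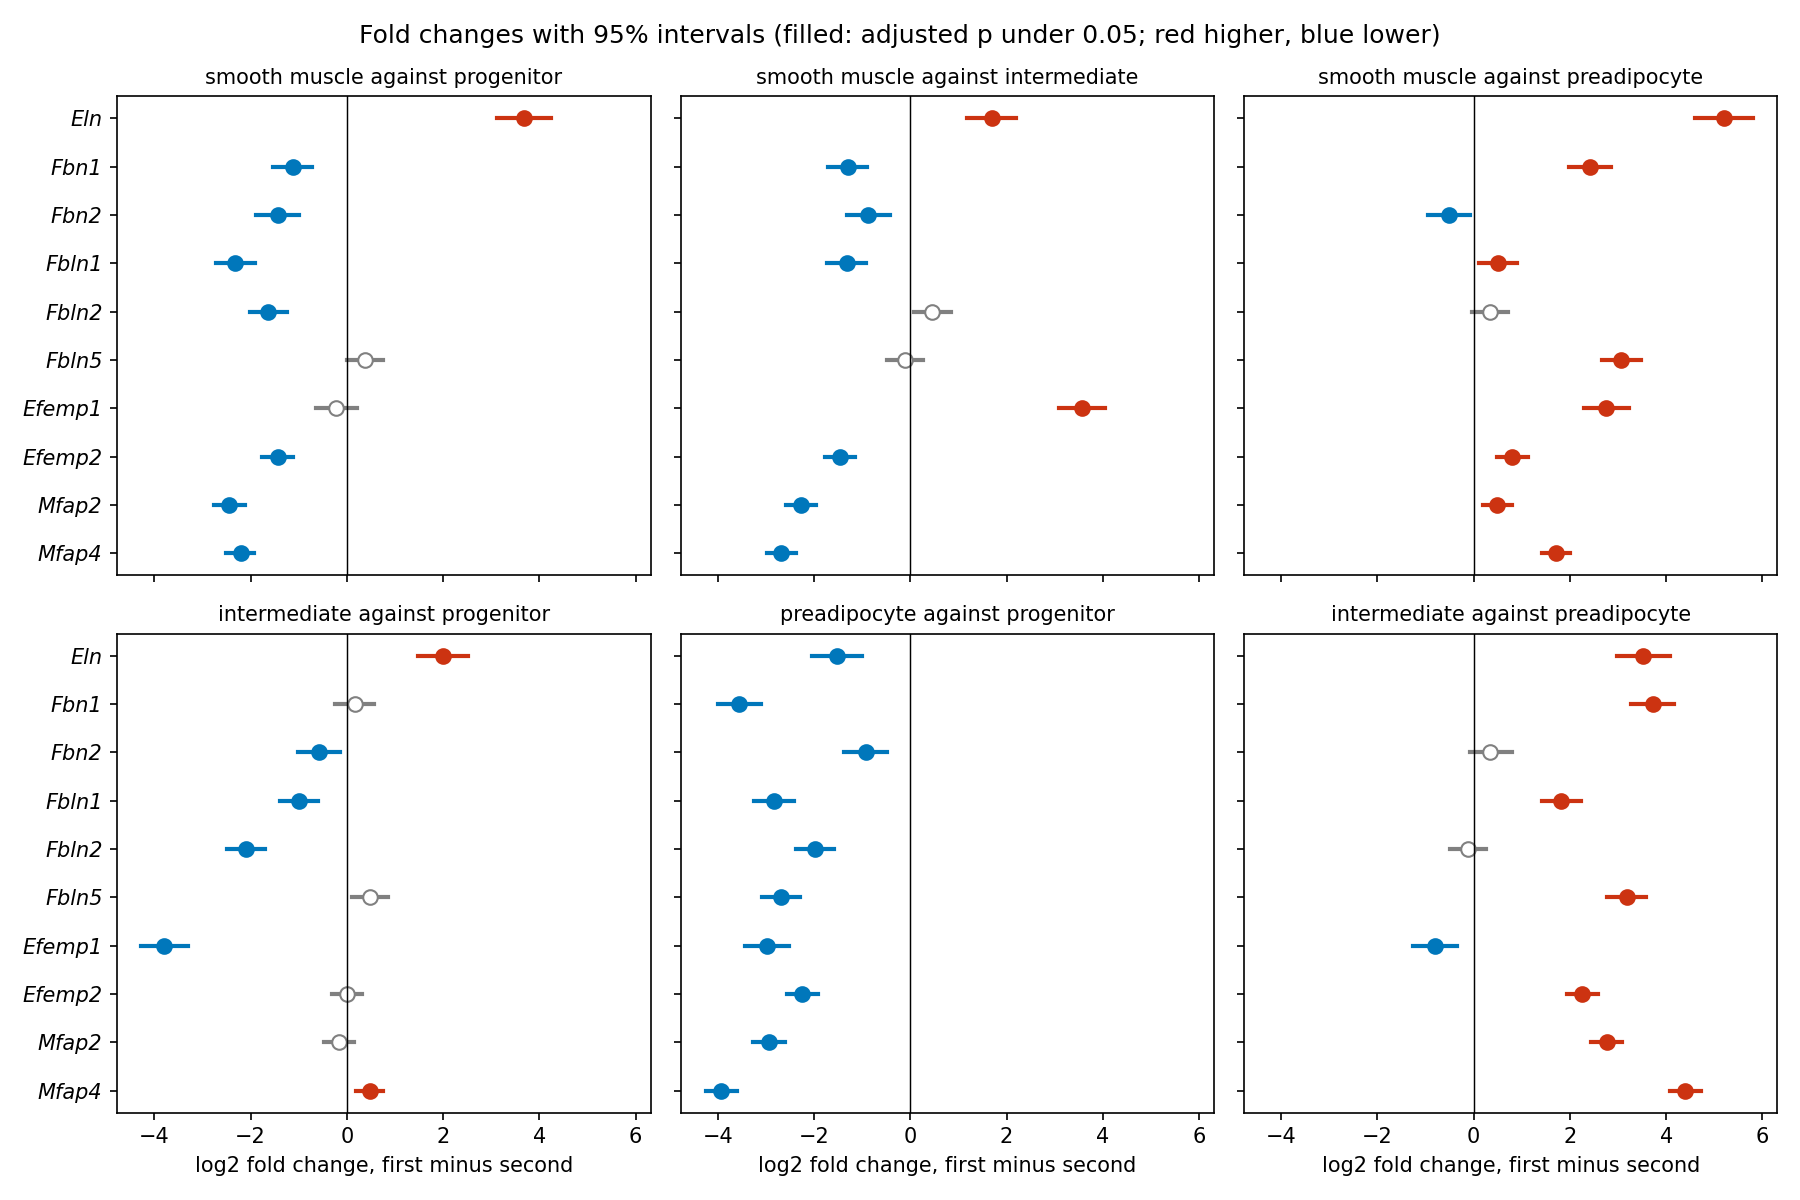
Log2 fold change of each member in each of the 6 pairwise comparisons from the edgeR fit over 12 libraries, with 95% intervals; filled points passed an adjusted p of 0.05 (red higher, blue lower). Preadipocytes lie below progenitor for all 10 members, and in smooth muscle against progenitor Eln has a log2 fold change of 3.68 while 7 members are lower.

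In smooth muscle against progenitor, Eln was the only member called higher while 7 were called lower and Fbln5 and Efemp1 were not called; 54.1% of the genes tested were called, 30.5% higher and 23.6% lower. The members' median log2 difference was -1.44 beside 0.09 for all genes. Against intermediate, smooth muscle had Eln and Efemp1 higher and 6 members lower, with a background of 28.8% (15.7% higher, 13.1% lower) and medians of -1.08 and 0.10. Against preadipocytes, smooth muscle had 8 members higher and Fbn2 lower, with a background of 66.6% (40.7% higher, 25.9% lower) and medians of 1.26 and 0.35. Preadipocytes had all 10 members lower than progenitor, from -0.93 ± 0.21 for Fbn2 (adjusted p = 0.00135, edgeR) to -3.93 ± 0.15 for Mfap4 (4.54e-11), with a background of 50.9% (25.1% higher, 25.9% lower) and medians of -2.76 and 0.04. The fibroblast and progenitor markers given above were also lower in preadipocyte than in progenitor libraries, and their part in this result was not tested.

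Intermediate cells had Eln and Mfap4 higher than progenitor and Fbn2, Fbln1, Fbln2 and Efemp1 lower, with a background of 27.6% (14.1% higher, 13.4% lower) and medians of -0.08 and 0.05. The 3009 genes called higher went to 1493 without intermediate replicate 2. The Fbn2 call (log2 -0.57 ± 0.21, adjusted p = 0.0491, edgeR) lay at the threshold and was lost without progenitor replicate 1 or 3 or any smooth muscle library (0.0545 to 0.0819), with the 5 CPM filter (0.102) and with the replicate number as a block (0.054). Between intermediate and preadipocyte libraries Fbn2 passed without preadipocyte replicate 1 (0.58, adjusted p = 0.024, edgeR). Against preadipocytes, intermediate cells had 7 members higher and Efemp1 lower (log2 -0.81 ± 0.21, adjusted p = 0.00458, edgeR), while Fbn2 and Fbln2 were not called; the background was 57.1% (31.1% higher, 26% lower) and the medians 2.51 and 0.24. These comparisons share groups and so are not independent of each other. Of the 49 member calls over the 6 comparisons, 42 kept their direction and their side of the threshold in all 20 other settings. The 7 that did not were Fbn2 in 3 comparisons, Fbln1, Mfap2 and Efemp2 in smooth muscle against preadipocytes, and Mfap4 in intermediate against progenitor. With library size alone, the median over all genes moved by 0.44 in smooth muscle against progenitor and by 0.48 in smooth muscle against intermediate, and the share of all called genes that were higher went from 56.4% to 82.8% and from 54.6% to 89.2%. It went from 49.2% to 67.6% in preadipocytes against progenitor and from 54.4% to 35.3% in intermediate against preadipocytes.

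Ratios of 2 members within a library do not depend on the scaling between libraries. They were taken per kilobase of annotated exon and tested over the 12 libraries with an exact permutation F test of 369600 assignments, whose smallest p is 6.49e-05. All 5 ratios differed among the populations (exact p adjusted over the 5 from 0.000162 to 0.00039). Of all genes tested, 79.8% differed among the populations, and ratios of other gene pairs were not tested. That all 5 passed therefore does not set these pairs apart. The log2 ratio of Efemp1 to Efemp2 was 1.35 in smooth muscle, 0.11 in progenitor, -0.59 in preadipocyte and -3.73 in intermediate libraries, a span of 33.74-fold. Its libraries ran from 1.30 to 1.43 in smooth muscle and from -4.01 to -3.19 in intermediate. The values of a ratio depend on the gene lengths used, while its differences between populations do not. Efemp2 has 3.788 kb of annotated exon and 2.634 kb in its longest coding transcript, and Efemp1 has 2.037 kb by both. The ratios were not recomputed with the longest coding transcript. The log2 ratio of Fbn2 to Fbn1 was -0.59 in preadipocytes, where the libraries stood at -0.57, -0.51 and -0.70, against -3.20 in progenitor, -3.50 in smooth muscle and -3.94 in intermediate libraries. From progenitor to preadipocytes Fbn1 fell by 3.55 and Fbn2 fell by 0.93 on the log2 scale. The log2 ratio of Fbln5 to Eln was -1.06 in progenitor and -4.37 in smooth muscle, a span of 9.879-fold.

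**Figure D3:**
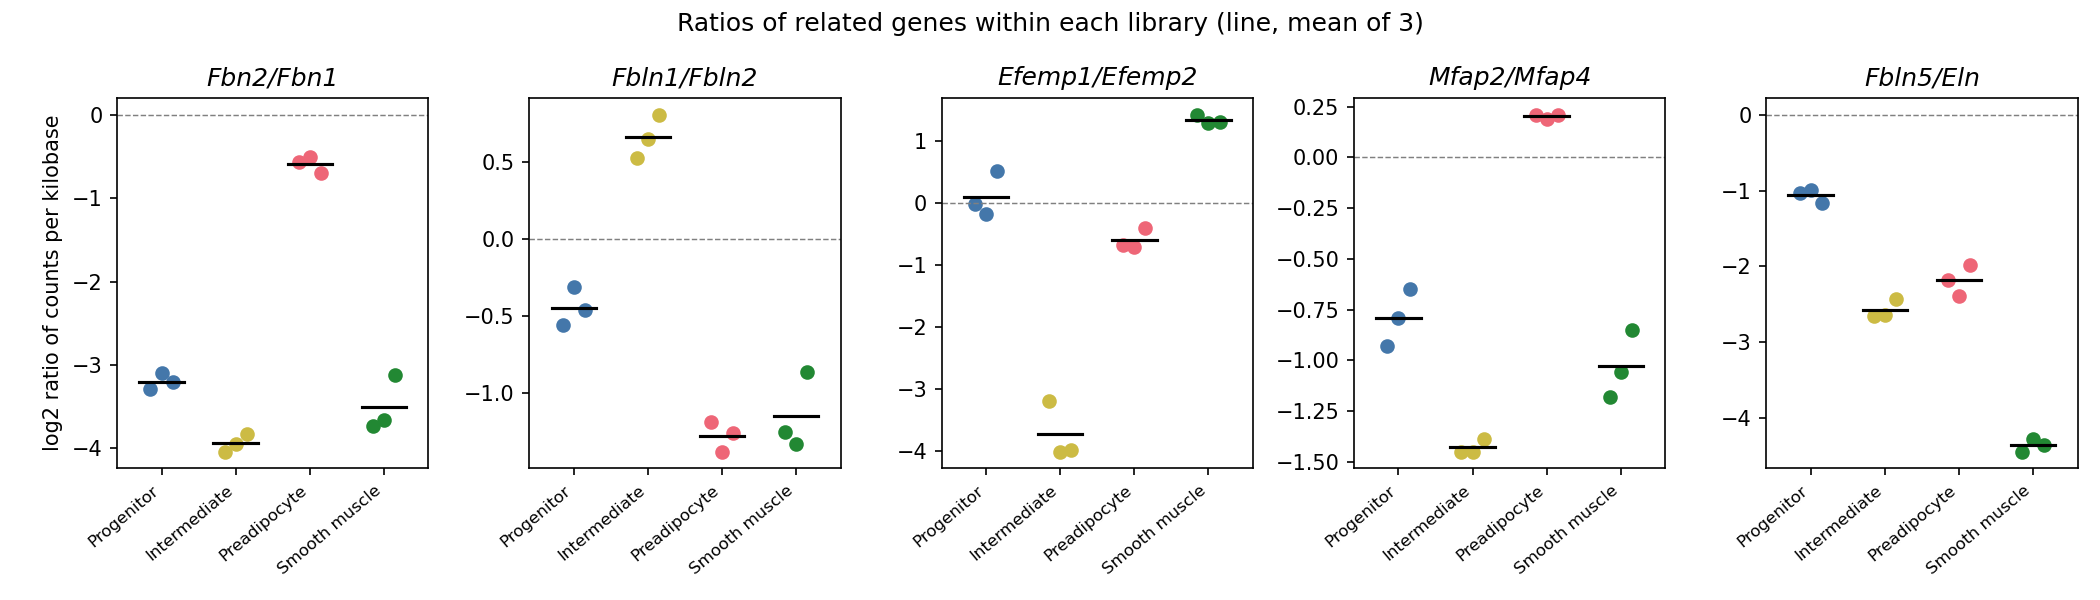
Log2 ratio of 2 members per kilobase of annotated exon within each library, for the 5 ratios tested; points are libraries. The ratio of Efemp1 to Efemp2 spans 5.08 on the log2 scale, from intermediate to smooth muscle, and the ratio of Fbn2 to Fbn1 stands apart in preadipocytes.

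Per kilobase of exon, the make-up of the 10 transcripts differed by population. In smooth muscle Eln made 82.9% ± 2.17 (SD, n = 3) of the summed level, with 5.73% ± 0.787 for Mfap4 and 2.84% ± 0.723 for Mfap2. In progenitor Mfap4 made 41.8% ± 2.39, Mfap2 24.1% ± 1.02 and Eln 10.3% ± 1.15. In intermediate cells Mfap4 made 42.2% ± 1.66 and Eln 29.9% ± 2.46, and in preadipocytes Eln made 25.2% ± 5.2, Mfap2 23.5% ± 2.78 and Mfap4 20.4% ± 2.31. Fbln2 made 12.4% ± 0.76 in preadipocytes against 1.15% ± 0.125 in intermediate cells. Fbln5 made 4.02% ± 0.179 in smooth muscle and 4.91% to 5.49% elsewhere. Lengths come from the union of annotated exons; with the longest coding transcript instead, Eln stood above Mfap4 in intermediate cells (1.34 ± 0.159) and not below it (0.712 ± 0.0844), so their order there depends on the length used. With that length the Eln share was 89.9% ± 1.39 for smooth muscle and 44.2% ± 2.92 for intermediate cells, and 37.5% ± 6.25 for preadipocytes against 17.4% ± 1.78 for progenitors. Mfap2 and Mfap4 then made 18.9% ± 2.86 and 16.2% ± 2.38 in preadipocytes, below Eln, where the union of exons put all 3 within the SD of Eln. Fbln5 then made 2.46% ± 0.117 in smooth muscle and 4.17% to 4.68% elsewhere.

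**Figure D4:**
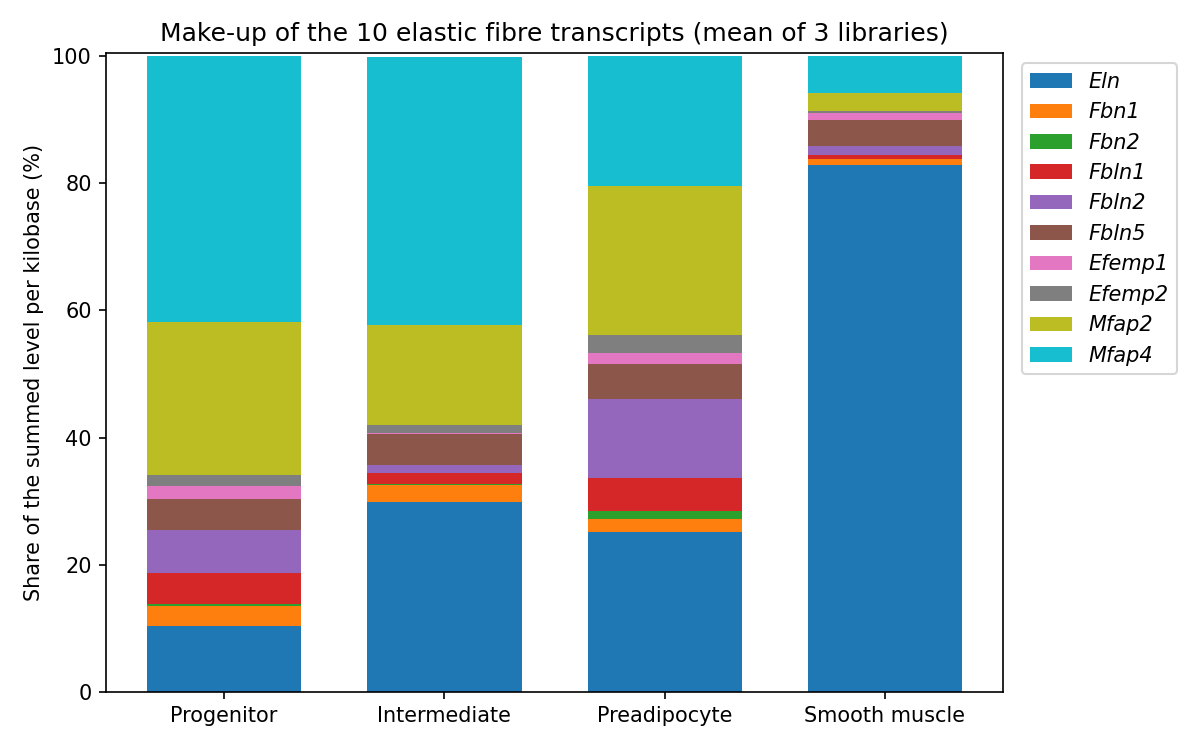
Share of each member in the summed level per kilobase of exon of the 10 members, as the mean of 3 libraries per population. Eln makes 82.9% in smooth muscle and 10.3% in progenitor, where Mfap4 makes 41.8%.

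The other genes of the pathway were counted from 5 lists of 57 genes, of which 55 were tested. The 5 lysyl oxidases were all called lower in preadipocytes than in progenitor (median log2 -2.92 beside 0.04 for all genes). Of all genes tested, 50.9% were called in that comparison, 25.9% lower. All 5 were higher in smooth muscle than in preadipocytes (2.10 beside 0.35), where 66.6% of all genes were called, 40.7% higher. Against progenitor, smooth muscle had Lox, Loxl3 and Loxl4 lower, at -0.57 ± 0.20, -1.42 ± 0.17 and -2.03 ± 0.24. None was called higher. Loxl1 (412.2 against 319.8 CPM) and Loxl2 (54 against 37 CPM) leaned the other way and were not called. For both, every smooth muscle library lay above every progenitor library. The ranges were 364.4 to 444.6 against 302 to 342.2 CPM for Loxl1, and 51.8 to 56.5 against 34.3 to 39 CPM for Loxl2. With library size alone the median over all genes moved up by 0.44 in this comparison. The Lox difference of -0.57 is not much larger than this shift, so its size depends on the scaling. The Lox call was not tested in that setting. In intermediate cells Loxl1, at 1.12 ± 0.21, and Loxl2, at 1.09 ± 0.22, were higher than in progenitor. Of 27 microfibril and elastic fibre partners, 8 were higher and 15 lower in smooth muscle than in progenitor (median -0.49 beside 0.09). Of all genes tested, 30.5% were higher and 23.6% lower there, so the 8 higher are near the share of all genes. In preadipocytes 24 of the 27 were lower and 2 higher than in progenitor, beside 25.9% lower and 25.1% higher among all genes. Thsd4, whose product ADAMTSL6 binds fibrillin-1, went from 28.2 CPM in progenitor to 388 CPM in smooth muscle (log2 3.78 ± 0.23, adjusted p = 4e-09, edgeR). Mfap5, for the microfibril protein MAGP-2, went the other way, from 3234 to 229.6 CPM (-3.82 ± 0.14, 3.93e-11). Ltbp2, a latent TGF-beta binding protein that also binds fibrillin, was higher in intermediate cells than in progenitor (435.7 against 87.7 CPM, log2 2.31 ± 0.15).

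Of 10 elastin and microfibril receptor genes, 4 were higher and 4 lower in smooth muscle than in progenitor (median log2 0.13 beside 0.09 for all genes, of which 54.1% were called). All 10 were lower in preadipocytes than in progenitor (median -1.18 beside 0.04, with 50.9% of all genes called, 25.9% lower). Itga8, an integrin subunit of contractile cells, went from 14.5 CPM in progenitor and 104.7 CPM in intermediate to 776 CPM in smooth muscle (5.74 ± 0.29 against progenitor, adjusted p = 5.45e-10, edgeR). Of 8 tested elastin-degrading enzymes, 5 were lower and none higher in smooth muscle than in progenitor (median -1.31). Among the lower were the gelatinase Mmp2 (-2.68 ± 0.14) and the cathepsin Ctsk (-2.84 ± 0.16). Levels in progenitor and smooth muscle were low for Mmp12 (0.246 and 1.53 CPM) and Ctss (0.735 and 0.463 CPM). Of 5 tested inhibitors, Timp3 and Timp4 were higher and 3 lower in smooth muscle than in progenitor (median -0.94). Among all genes tested, 30.5% were higher and 23.6% lower in this comparison. The inhibitor Cst3 was higher in intermediate than in progenitor libraries (2994 against 1074 CPM).

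The genes with patterns most like the members over the 12 libraries were taken from 7791 candidates by Pearson correlation of log2 CPM, as a description. For Eln these were Pde3a (r = 0.994), Myl9 (0.989) and Fam107b (0.987), and for Fbln5 Prdm6 led (0.998). For Mfap4 it was Vcam1 (0.998), for Efemp2 Chpf (0.997), for Mfap2 Dap (0.996) and for Fbn1 Arhgef10 (0.996). For Efemp1 the best were Igfbp6 (0.974) and Dpp4 (0.971), for Fbln2 Rcan1 (0.989), and for Fbn2 Jun (0.97). Among the members, Efemp2 and Mfap4 (0.99), Efemp2 and Mfap2 (0.98) and Fbn1 and Mfap4 (0.96) were among the most alike, with Fbln1 and Mfap2 and Mfap2 and Mfap4 also at 0.96, Eln and Fbln5 reached 0.82, and Eln and Fbn2 stood at -0.36. The libraries share 4 populations, so few independent levels stand behind each r.

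Annotated exons of other genes overlap 5 members on the opposite strand, over 20.14% of exon bases for Fbn1 and 0.98% to 4.63% for Eln, Fbn2, Efemp2 and Mfap4. The use of strand in counting is not given in the sources used here, so reads from these stretches cannot be assigned to one gene.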

How the data were processed

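Libraries were made from poly(A) RNA with a SMART-Seq low-input kit that favours full-length transcripts, per the labels' protocols. The submitters' processing notes name STAR 2.5.2a, DESeq2 1.26.0 and mm10; for the counter, its annotation and strand use no source used here gives a name or setting. The authors deposited whole-number counts per gene, which were used as they stand; the other 2 of 3 deposited tables were not used. Identifiers were named from GENCODE M21, with 36480 of 36512 matched. The members and gene lists were chosen with earlier results of these data known.

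Genes were kept with filterByExpr (21285 genes), scaled by TMM and fitted in edgeR 4.0.16 (glmQLFit, glmQLFTest; R 4.3.3) in 1 model over 12 libraries, two-sided, with Benjamini-Hochberg adjustment over all genes and calls at 0.05. Totals of 11701825 to 17123109 counts put the limit of a count of 0 (3 counts) at 0.175 to 0.256 CPM, which covers counting error only. Replicates differed beyond sampling noise (chi-square per degree of freedom 3.85 to 70.5). Ratios added 0.5 to each count. Levels between genes are per kilobase of exon. The genes most like Fbln1 are not reported here. Pathway genes were named from among the 2 with the smallest p per list, direction and comparison, and the text names only some of these. The lysyl oxidases were also named after their values were seen. On simulated counts over 21285 genes for smooth muscle against progenitor, the fit found 34 of 100 genes set to 2-fold. It found 76 of 100 set to 4-fold, and 6 of its 116 calls were false. No other gene was changed in the simulation, whereas 54.1% of genes were called in this comparison. These rates therefore do not carry over to the data. Alternatives were other scalings, DESeq2 1.42.0, other filters, fits to 2 groups, a replicate block and leaving out each library; another TMM reference and another gene length were added after seeing the data.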

Additional observations from a re-analysis of the deposited data

How the results depend on the processing

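Of 60 member fold changes, 49 to 58 kept their direction and side of the threshold in each of 8 settings that left out no replicate, and 53 to 58 when 1 library was left out. TMM scales libraries to a reference, and the reference changed from progenitor replicate 2 to preadipocyte replicate 3 when progenitor replicate 2 or any intermediate library was left out. This moved the log2 scaling of smooth muscle over progenitor from 0.44 to between 0.80 and 0.81, against 0.44 to 0.48 without any other library, so these 4 settings change the scaling beside the samples. With preadipocyte replicate 3 as the reference and all libraries kept, tried after seeing this, Efemp1 in smooth muscle against progenitor was -0.51, Efemp2 in intermediate against progenitor turned to -0.13, and the calls of Fbln1 (0.26) and Mfap2 (0.25) in smooth muscle against preadipocyte and of Mfap4 (0.33) in intermediate against progenitor were lost. In that setting 41.1% of called genes were higher in smooth muscle than in progenitor, against 56.4%, and the share went from 54.6% to 40.7% in smooth muscle against intermediate and from 51.3% to 37.0% in intermediate against progenitor.

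The signs that turned were of differences not called with TMM. With library size alone these were Efemp1 in smooth muscle against progenitor (0.22), Fbln5 in smooth muscle against intermediate (0.39, which was then called, adjusted p = 0.0452, edgeR), Efemp2 in intermediate against progenitor (-0.03) and Fbn2 in intermediate against preadipocyte (-0.07). With no low-count filter these were Fbln5 in smooth muscle against progenitor (-0.11), Fbln2 in smooth muscle against preadipocyte (-0.09), and Fbn1 (-0.06) and Efemp2 (-0.22) in intermediate against progenitor. Leaving out 1 library gave -0.21 to 0.01 for Efemp2 and -0.05 to 0.17 for Fbn1 in intermediate against progenitor, and -0.34 to 0.15 for Fbln2 in intermediate against preadipocyte. Genes called in smooth muscle against intermediate went to 10454 with library size alone, those in smooth muscle against progenitor to 17437 with no filter and 6948 at 5 CPM, and those in smooth muscle against preadipocyte to 9347 at 5 CPM, where fewer genes are tested. Genes called in intermediate against progenitor ranged from 3780.0 (without progenitor replicate 1) to 7658 without 1 library, and those called higher from 1493 (without intermediate replicate 2) to 4054, against 3009, with 1647 without progenitor replicate 2, 1847 without progenitor replicate 1 and 1750.0 without intermediate replicate 3. Genes called higher in smooth muscle than in intermediate went from 3346 to 2121 and 2155 without intermediate replicates 1 and 2, and those called lower from 2781 to 4207 without progenitor replicate 2. Those called lower in smooth muscle than in progenitor went from 5024 to between 8041 and 8134 without any 1 intermediate library. With preadipocyte replicate 3 as the TMM reference and all libraries kept, 7585 genes were called lower in smooth muscle than in progenitor. Smooth muscle against intermediate then had 2749 genes called higher and 4009 lower, and intermediate against progenitor had 2457 called higher. The cause of the changes listed here was not tested further.

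With the replicate number as a block, 2 calls of Fbn2 were lost, in smooth muscle against preadipocyte (-0.48, adjusted p = 0.0549, edgeR) and in intermediate against progenitor (-0.57, adjusted p = 0.054, edgeR), and no other member call changed. The numbers are only shared numbers: 6 of 18 same-number pairs correlated above 0.1 (-0.163 to 0.207), and 6 of 12 libraries correlated best with their own number.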
